A study of Mus musculus with 240 samples.

Results

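The hypothalamus of obese male mice was compared between 10 and 4 weeks of age. The samples were picked by title: 20 of the 240 arrays of the series, made of 5 BTBRob mice at 10 weeks, 5 BTBRob mice at 4 weeks, 5 B6ob mice at 10 weeks and 5 B6ob mice at 4 weeks. BTBR and B6 are inbred strains, and ob is the usual name of the leptin-deficient allele, which makes mice obese from an early age. All mice were male and bred in house, and no treatment is named. The 20 lean hypothalamus arrays, 5 for each strain and age, served as the comparison for what obesity shares with growing up; the labels call them lean and give no allele. Each array set 1 mouse against a pool of RNA from 20 mice of its own strain and tissue, so the pool cancels in a change with age within a strain, and levels cannot be compared between strains. A value is the log2 ratio of mouse to pool, and a change with age is the mean at 10 weeks minus the mean at 4 weeks in each strain, averaged over the strains unless 1 strain is named. The 5 mice of a group are separate animals by their numbers, and no mouse number of a strain recurs at both ages.

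The hypothalamus sets hunger, body temperature, growth and reproduction through small groups of neurons that release peptides. Leptin from fat normally silences the AgRP and NPY neurons that drive feeding and excites the POMC neurons that curb it, and both act on the melanocortin receptor MC4R. Weeks 4 to 10 take a mouse from just after weaning to young adulthood, a time when brain myelin, blood vessels and the matrix around neurons are still maturing.

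Whether a positive value means more RNA in the mouse than in the pool is not stated, so every direction here is a likely one. It rests on Agrp and Npy, which are known to be high in leptin-deficient mice: at 10 weeks Agrp spanned 0.53 to 1.30 in BTBR ob mice against -1.61 to -1.21 in BTBR lean mice, and -1.05 to 0.68 in B6 ob mice against -1.38 to -0.73 in B6 lean mice. With the sign turned, every rise below would read as a fall and the sizes and tests would stay as they are. A ratio to a pool of the same tissue gives no level, so the labelled tissue could not be checked against the presence of its markers, only against how evenly they were taken. Medians of the 40 hypothalamus arrays lay between -0.0096 and 0.018 and 5 mice a group set the precision. The arrays of B6 ob mice were less alike than those of BTBR ob mice, with median correlations to their own group of 0.00085 to 0.168 against 0.173 to 0.324 for BTBR. The 4-week B6 ob mouse 14 had the widest spread of values, and the 4-week B6 lean mouse 34 correlated negatively with its group (-0.083).

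Of 19896 genes tested with limma, 1405 (7.06%) rose and 1543 (7.76%) fell between 4 and 10 weeks in ob mice at an adjusted p under 0.05. The changes were mostly small, with a median size of 0.18 on the log2 scale among the called genes and 15 genes past a change of 2-fold, while the median of all genes was -0.00076. Among BTBR ob mice alone 6.34% of genes rose and 6.91% fell, and in B6 ob mice alone 2.78% rose and 3.47% fell. The B6 and BTBR changes share no mouse, and 442 genes were called in the same direction in both, which is 16.8% of the BTBR calls and 35.6% of the B6 calls, with 22 called in opposite directions. The B6 count of 1243 genes was 613 and the BTBR count of 2637 was 1652 in the fit to the 20 ob arrays alone, and the B6 count was 790 without 4-week mouse 11. The values of the 10-week and 4-week mice did not overlap in either strain, in the same direction, for 57 genes that were higher at 10 weeks (0.286%) and 162 that were lower (0.814%).

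**Figure D1:**
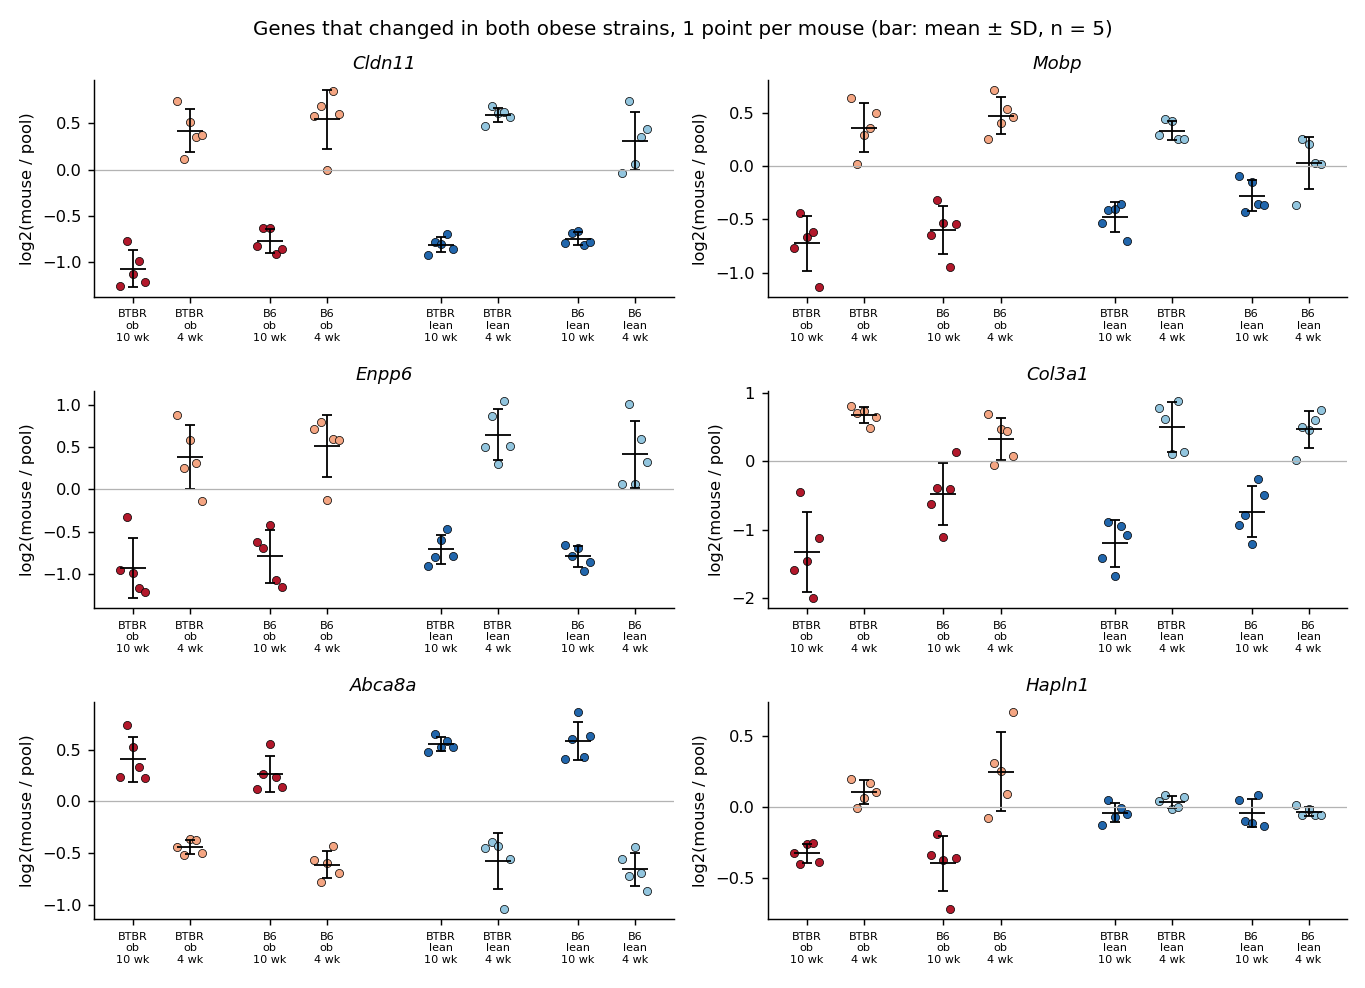
Log2 ratio to the pool of 6 genes in every mouse (y axis) by strain, genotype and age (x axis), with red for ob mice, blue for lean mice, the darker shade for 10 weeks and bars for mean ± SD over 5 mice. Cldn11, Mobp and Enpp6 lie lower at 10 than at 4 weeks in both ob strains, Abca8a lies higher, and Hapln1 separates the ages in ob mice while its lean groups stay near 0.

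The myelin program held several of the largest falls. Oligodendrocytes wrap axons in myelin, a membrane built from a few abundant proteins and galactolipids. Of 34 listed genes of myelin and mature oligodendrocytes 32 were measured, of which 20 fell, 0 rose and 12 did not pass the test, with a median change of -0.33 against -0.00076 for all genes. In 10 of the 32 the ages did not overlap in either strain. In BTBR ob mice 14 of the 32 fell, with a median of -0.35, and in B6 ob mice 15 fell, with a median of -0.37.

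Cldn11, the tight junction protein of the myelin sheath, showed the pattern most cleanly. Cldn11 read -1.26, -0.77, -1.13, -0.99 and -1.21 in the 10-week BTBR ob mice, against 0.75, 0.12, 0.51, 0.35 and 0.38 in those of 4 weeks. In B6 ob mice the values were -0.83, -0.63, -0.64, -0.91 and -0.86 at 10 weeks and 0.58, 0.68, -0.00066, 0.85 and 0.60 at 4 weeks. Within each strain every 10-week mouse lay below every 4-week mouse, and the lowest 4-week value belonged to B6 mouse 7. The change was -1.41 ± 0.087 (SE), a level 2.65 times lower at 10 weeks (adjusted p = 5.49e-14).

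Ugt8a, the enzyme that makes the galactolipids of myelin, had the largest fall of the list. The Ugt8a ratios of 10-week BTBR ob mice were -1.66, -0.87, -1.30, -1.62 and -1.32, against 0.74, 0.12, 0.59, 0.24 and 0.25 at 4 weeks. Those of B6 ob mice were -0.80, -0.63, -0.45, -0.89 and -0.95 at 10 weeks, against 0.65, 0.57, -0.57, 0.93 and 0.63 at 4 weeks. In BTBR the ages were far apart, while in B6 the 4-week mouse 7 fell among the 10-week mice. The change was -1.47 ± 0.14 (adjusted p = 7.76e-10). Fa2h, which hydroxylates the fatty acids of those lipids, changed by -1.07 ± 0.093, and Mal, a proteolipid that carries them, by -1.36 ± 0.096. The structural genes Cnp (-1.02), Mag (-0.74) and Mog (-0.66) fell as well. The Mog value averages 2 probes that disagree in size, with changes of -1.24 and -0.086.

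Mobp, a basic protein of compact myelin, fell further in ob than in lean mice. At 10 weeks BTBR ob mice had Mobp values of -0.77, -0.44, -0.67, -0.62 and -1.14, against 0.64, 0.021, 0.29, 0.36 and 0.49 at 4 weeks. For B6 ob mice they were -0.65, -0.32, -0.54, -0.94 and -0.54 at 10 weeks, against 0.25, 0.72, 0.41, 0.54 and 0.46 at 4 weeks. No 10-week value reached the 4-week values in either strain. In lean mice the 10-week values spanned -0.70 to -0.36 in BTBR and -0.43 to -0.096 in B6, against 0.25 to 0.44 and -0.37 to 0.25 at 4 weeks. The change was -1.08 ± 0.085 in ob and -0.56 ± 0.085 in lean mice, and their difference of -0.52 ± 0.12 passed the test (adjusted p = 0.0109), though not after quantile normalization (difference -0.33, adjusted p = 0.073).

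Cells on the way to becoming oligodendrocytes followed. Of 19 measured genes of precursors and newly formed oligodendrocytes 11 fell and 1 rose (Ptprz1, 0.13), with a median of -0.18. Enpp6, a choline phosphodiesterase that marks newly formed oligodendrocytes, is the leading member. BTBR ob mice of 10 weeks gave -0.96, -0.32, -0.98, -1.16 and -1.21 for Enpp6, and those of 4 weeks gave 0.88, 0.25, 0.59, 0.31 and -0.13. B6 ob mice of 10 weeks gave -0.62, -0.69, -0.42, -1.07 and -1.15, and those of 4 weeks gave 0.72, 0.80, -0.12, 0.59 and 0.59. The ages did not overlap in either strain, with BTBR mouse 9 the highest of the 10-week mice. The change was -1.31 ± 0.14 (adjusted p = 7.03e-09). Bmp4, a growth factor gene, changed by -0.78 ± 0.092, the transcription factors Olig1 by -0.49 ± 0.055 and Sox10 by -0.38 ± 0.06, and Pdgfra, the receptor that marks precursors, by -0.23 ± 0.057. In bulk tissue, fewer cells of a type and less RNA per cell cannot be told apart.

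Genes of the extracellular matrix fell next. Collagens and elastin form the fibres of vessel walls and meninges. Of 25 genes 16 fell and 0 rose, with a median of -0.32. Col3a1 and Col1a1 encode fibrillar collagens and Eln encodes elastin. In BTBR ob mice Col3a1 stood at -1.60, -0.45, -1.46, -2.01 and -1.13 at 10 weeks, against 0.81, 0.71, 0.74, 0.49 and 0.66 at 4 weeks. The B6 ob mice had -0.62, -0.39, -1.11, -0.41 and 0.14 at 10 weeks, against 0.69, -0.055, 0.47, 0.44 and 0.086 at 4 weeks. In BTBR the ages were apart by more than 0.9, while in B6 the 10-week mouse 1751 rose above 2 of the 4-week mice. Col3a1 changed by -1.41 ± 0.16 (adjusted p = 4.81e-08), Col1a1 by -1.26 ± 0.15 and Eln by -0.95 ± 0.14. The fall of Col3a1 was -2.01 in BTBR and -0.80 in B6, and this strain difference of -1.21 ± 0.32 (adjusted p = 0.0288) was lost in 5 of 20 fits without 1 ob mouse, those without BTBR 10-week mice 4 and 18, B6 10-week mouse 1751 and B6 4-week mice 11 and 14 (adjusted p up to 0.0777), and in the fit to the 20 ob arrays alone (adjusted p = 0.0922), after quantile normalization (adjusted p = 0.0643), with array weights (adjusted p = 0.0571) and without the 2 arrays that stand apart (adjusted p = 0.0631). In lean mice 17 of the 25 genes fell, with a median of -0.30.

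Markers of meninges and blood moved in the same direction. Of 17 meningeal genes 5 fell and 0 rose, 2 of them collagens counted above, and 3 to 8 fell when any 1 ob mouse was left out, the most without BTBR 10-week mouse 9 and the fewest without B6 10-week mice 1823 and 9, B6 4-week mouse 7 or BTBR 10-week mice 10 and 18. The mean of the list ran from -0.71 to 0.53 in BTBR ob mice of 10 weeks against 0.22 to 0.49 at 4 weeks, and from -0.67 to 0.41 in B6 ob mice of 10 weeks against -0.098 to 0.40 at 4 weeks. Of 10 blood cell genes 3 fell, led by the globin gene Hbb-b1 (-0.94 ± 0.27), or 5 without BTBR 10-week mouse 9, and the mean of the list ran from -0.51 to 1.03 in BTBR ob mice of 10 weeks against 0.0097 to 0.42 at 4 weeks, and from -0.47 to 0.11 in B6 ob mice of 10 weeks against -0.037 to 0.28 at 4 weeks. Their part in the fall of the matrix genes was not tested. Igf2, a fetal growth factor gene made in the meninges and one of the imprinted growth genes, changed by -0.91 ± 0.20 (adjusted p = 0.0015). It was 1 of 4 that fell among 19 measured imprinted growth genes, of which 0 rose.

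Abca8a, which encodes a lipid transporter of the ABC family, had the largest rise among the genes without overlap. Abca8a read 0.23, 0.73, 0.52, 0.33 and 0.22 in the 10-week BTBR ob mice, against -0.44, -0.52, -0.37, -0.38 and -0.50 in those of 4 weeks. In B6 ob mice the values were 0.12, 0.27, 0.56, 0.23 and 0.14 at 10 weeks and -0.56, -0.78, -0.59, -0.43 and -0.69 at 4 weeks. Within each strain every 10-week mouse lay above every 4-week mouse. The change was 0.86 ± 0.074, a level 1.82 times higher at 10 weeks (adjusted p = 1.37e-10). Lean mice rose as well, without overlap in either strain. Their Abca8a means were 0.55 in BTBR and 0.59 in B6 at 10 weeks, against -0.57 and -0.65 at 4 weeks. Crabp1 encodes a protein that binds retinoic acid in the cytosol. The Crabp1 ratios of 10-week BTBR ob mice were 0.27, 0.074, 0.40, -0.024 and 0.098, against -0.26, -0.15, -0.22, -0.47 and -0.19 at 4 weeks. Those of B6 ob mice were 0.43, 0.32, 0.13, 0.65 and 0.77 at 10 weeks, against -0.43, -0.76, -0.087, -0.60 and -0.72 at 4 weeks. Its ages did not overlap in either strain, and it changed by 0.70 ± 0.092 (adjusted p = 9.73e-07). Lean means of Crabp1 were 0.19 in BTBR and 0.125 in B6 at 10 weeks, against -0.20 and -0.41 at 4 weeks. Pcolce2, an enhancer of procollagen processing, changed by 0.74 ± 0.094, Ovgp1, known as an oviduct glycoprotein, by 0.57 ± 0.055, Rom1, known from photoreceptor discs, by 0.53 ± 0.043, Scd3, a fatty acid desaturase, by 0.52 ± 0.053, and Pkd2l1, a channel of neurons that touch the cerebrospinal fluid, by 0.48 ± 0.11. Fbxo17 (0.47), Jade2 (0.42) and Zc3h6 (0.39) completed the 10 largest rises without overlap. Outside the myelin lists, the 10 largest falls without overlap held Gsn, which severs actin filaments (-1.10), Pdlim2, which binds the cytoskeleton (-0.98), and Srd5a1, the enzyme that reduces progesterone and testosterone (-1.09).

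Genes of dividing cells and of growing neurites passed the test in part. Of 38 genes of mitosis and the G2/M phase 7 fell and 1 rose, with a median of -0.05. Pbk, a mitotic kinase, changed by -0.63 ± 0.12, the proliferation marker Mki67 by -0.46 ± 0.11 and Cenpa, the centromeric histone, by -0.30 ± 0.049, while Racgap1, which is needed to divide the cytoplasm, rose by 0.33 ± 0.044. Of 31 genes of DNA replication 8 rose and 2 fell, with a median of 0.055. Among them Rfc3, a subunit of the clamp loader, changed by 0.31 ± 0.047 and Mcm4, a subunit of the replicative helicase, by 0.18 ± 0.051. Of 30 genes of immature neurons and neurite growth 9 fell and 0 rose, with Marcksl1, which organizes actin, at -0.57 ± 0.06, Nrep at -0.32 ± 0.069 and Dpysl4, of the collapsin response mediators, at -0.30 ± 0.047. Without the 2 arrays that stand apart, 15 of the 38 mitotic genes fell and 0 rose in lean mice (median -0.098), against 6 and 1 in ob mice (median -0.051). Of the 30 neurite genes 15 then fell and 1 rose in lean mice (median -0.13), against 9 and 0 in ob mice (median -0.077). Of the 31 replication genes 5 rose and 5 fell in lean mice, against 7 and 2 in ob mice. Over all 19896 genes that fit, chosen after seeing the data, called 1938 rises and 2674 falls in lean mice. In ob mice it called 1212 rises and 1432 falls.

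The matrix around neurons changed in part. Perineuronal nets are lattices of hyaluronan, link proteins and proteoglycans that close around neurons as circuits mature. Of 12 genes 4 fell and 0 rose. Adamts4, a protease that cuts those proteoglycans, had the largest fall of the list. At 10 weeks BTBR ob mice had Adamts4 values of -0.95, -0.41, -0.71, -0.86 and -0.79, against 0.34, 0.29, 0.43, 0.42 and 0.34 at 4 weeks. For B6 ob mice they were -0.39, -0.51, -0.37, -0.49 and -0.54 at 10 weeks, against 0.57, 0.64, 0.21, 0.68 and 0.71 at 4 weeks. The ages did not overlap, and the change was -1.06 ± 0.072 (adjusted p = 2.97e-13). Ncan, the proteoglycan neurocan, changed by -0.41 ± 0.068. Without the 2 arrays that stand apart, 9 of the 12 fell and 0 rose in lean mice (median -0.16), against 4 and 0 in ob mice (median -0.052). Over all 19896 genes that fit, chosen after seeing the data, called 2674 falls in lean mice and 1432 in ob mice. The difference between ob and lean mice then passed upward for 2 and downward for 1, with a median of 0.12.

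Hapln1, the link protein that ties proteoglycans to hyaluronan, fell in ob mice and did not pass in lean mice. BTBR ob mice of 10 weeks gave -0.33, -0.40, -0.26, -0.26 and -0.38 for Hapln1, and those of 4 weeks gave 0.20, -0.0086, 0.062, 0.17 and 0.11. B6 ob mice of 10 weeks gave -0.34, -0.19, -0.37, -0.72 and -0.36, and those of 4 weeks gave -0.079, 0.31, 0.25, 0.091 and 0.67. The ages were separate in both strains. In BTBR lean mice the values spanned -0.13 to 0.049 at 10 weeks against -0.013 to 0.084 at 4 weeks, and in B6 lean mice -0.13 to 0.087 against -0.059 to 0.013, with overlap in both strains. The change was -0.54 ± 0.059 in ob mice (adjusted p = 2.19e-08) and -0.042 ± 0.059 in lean mice (adjusted p = 0.682), and their difference was -0.50 ± 0.083 (adjusted p = 0.00251).

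**Figure D2:**
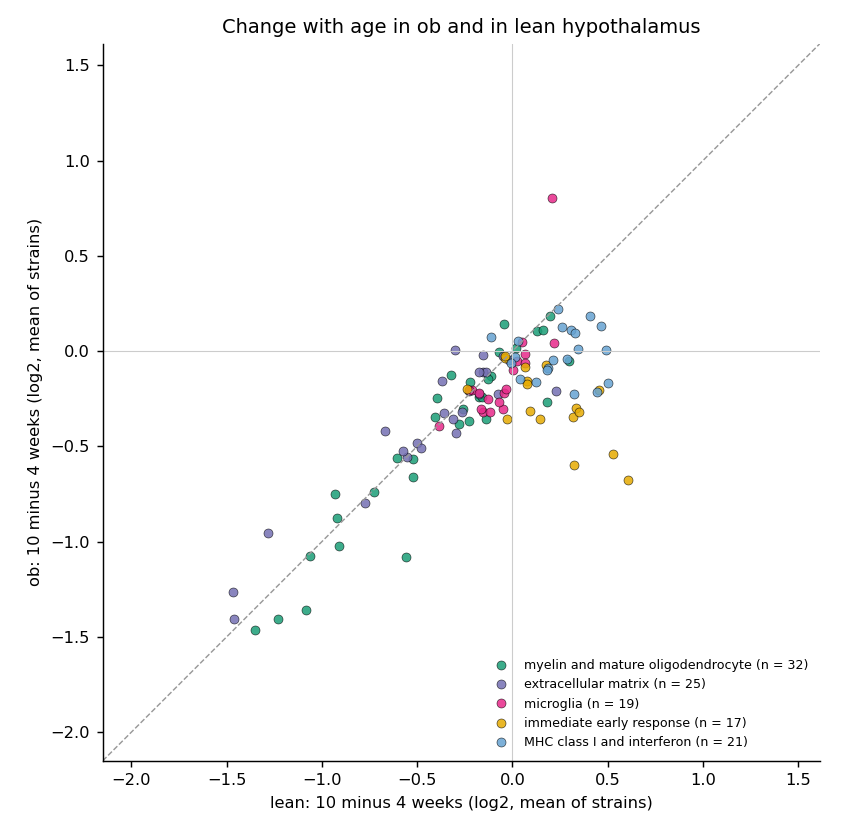
Change from 4 to 10 weeks (10 minus 4 weeks, log2, mean of both strains) of the members of 5 lists, in ob mice on the y axis and in lean mice on the x axis, 1 point per gene, with the dashed line where both are equal. Myelin and matrix genes lie mostly along the line with falls in both, most genes of the immediate early response and of MHC and interferon lie to the right of it, and the isolated microglial point at the top is Itgam.

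A part of the change with age was also called in lean mice. In lean mice 8.09% of genes rose and 11.4% fell, and 1022 genes were called in the same direction in ob and lean mice, which is 34.7% of the ob calls and 26.4% of the lean calls, with 64 called in opposite directions. These 2 changes share no mouse, and across the 19896 genes, which are not independent replicates, they correlated with r = 0.331. The difference between the changes was tested directly: 3.8% of genes changed more upward and 4.03% more downward in ob than in lean mice. This count of 1559 genes was 1022 without B6 ob 10-week mouse 1822, 1025 without B6 lean 4-week mouse 31, 1032 without BTBR lean 4-week mouse 45 and 2446 without B6 lean 4-week mouse 34. Of the 2948 genes called in ob mice, 614 also differed from lean mice by this test. In the myelin list 18 genes fell and 1 rose (Apod) in lean mice, and the difference passed for 2 of 32, Mobp and Evi2a (-0.45), both lower in ob.

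Immediate early genes, which neurons switch on within minutes of activity, were tested in ob and lean mice. Of 17 genes 4 fell and 0 rose in ob mice, with a median of -0.30. With any 1 ob mouse left out 2 to 6 fell, the fewest without B6 10-week mouse 1752. By comparison, in lean mice 2 rose and 1 fell, with a median of 0.15, and Egr2 was one of the 2. The difference passed for 4 of 17, all lower in ob, with a median difference of -0.41 over the list. Egr2 encodes a zinc finger transcription factor of this response. In BTBR ob mice Egr2 stood at -0.36, -0.40, -1.30, -0.87 and -0.39 at 10 weeks, against 0.27, 0.83, 0.29, -0.16 and 0.51 at 4 weeks. The B6 ob mice had 0.12, -0.58, -0.31, -0.45 and 0.11 at 10 weeks, against -0.48, -0.34, 0.67, -0.52 and 1.24 at 4 weeks. The ages overlapped in B6 ob mice and not in BTBR ob mice. In lean mice Egr2 spanned -0.26 to 0.55 in BTBR and -0.61 to 1.15 in B6 at 10 weeks, against -0.59 to -0.09 and -0.96 to -0.14 at 4 weeks. It changed by -0.67 ± 0.20 in ob mice (adjusted p = 0.0187) and by 0.61 ± 0.20 in lean mice (adjusted p = 0.0303), a difference of -1.28 ± 0.28 (adjusted p = 0.00892). The ob change alone missed the threshold after quantile normalization (adjusted p = 0.0516) and with array weights (adjusted p = 0.0552), and the lean change in 5 of 20 fits without 1 lean mouse, those without B6 10-week mice 22 and 23, B6 4-week mouse 47, BTBR 10-week mouse 30 and BTBR 4-week mouse 45. Fos differed by -0.63 ± 0.13 (adjusted p = 0.00608) and Egr4 by -1.06 ± 0.28 (adjusted p = 0.0191).

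Genes of MHC class I, whose products display peptides to T cells, and of the interferon response rose with age in lean mice. There 13 of 21 rose and 0 fell, with a median of 0.26, while in ob mice 0 passed in either direction and 6 had an unadjusted p under 0.05 (2 fell without BTBR 10-week mouse 9 and 2 rose without BTBR 10-week mouse 5), with a median of -0.03. The difference passed for 9 of 21, all lower in ob, and for 7 to 10 when any 1 mouse was left out. H2-D1, a class I heavy chain gene, shows the levels. H2-D1 read -0.10, 0.026, -0.019, -0.10 and -0.28 in the 10-week BTBR ob mice, against -0.027, 0.067, -0.061, -0.14 and 0.031 in those of 4 weeks. In B6 ob mice the values were 0.021, -0.073, -0.10, 0.042 and 0.0056 at 10 weeks and -0.055, -0.024, -0.015, 0.041 and -0.013 at 4 weeks. In both ob strains the ages overlapped around 0. In lean mice H2-D1 stood at 0.47, 0.091, 0.15, 0.19 and -0.001 in BTBR at 10 weeks against -0.097, -0.15, -0.10, -0.18 and -0.20 at 4 weeks, and at 0.052, 0.053, 0.082, 0.37 and 0.21 in B6 at 10 weeks against 0.05, -0.17, -0.13, -0.043 and -0.18 at 4 weeks, with no overlap in BTBR and nearly touching ranges in B6. The change was -0.04 ± 0.046 in ob and 0.29 ± 0.046 in lean mice, and the difference was -0.33 ± 0.066 (adjusted p = 0.00587). B2m, the light chain of class I, differed by -0.27 ± 0.055 (adjusted p = 0.00601), H2-K1 by -0.34 ± 0.086 and the class II gene H2-Aa by -0.67 ± 0.18.

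Among the 4 largest differences in each direction, those of Ywhag, a 14-3-3 protein gene (-1.23 ± 0.35, lost in 3 of 40 fits without 1 mouse, those without B6 ob mice 1822 of 10 weeks and 7 of 4 weeks and B6 lean 4-week mouse 31), and of Cxcl10, a chemokine gene (-1.10 ± 0.35, lost in 27 of 40 and after quantile normalization, adjusted p = 0.0586), were lower in ob and close to the threshold. Ank2, which anchors channels to the membrane skeleton, changed by 0.29 in ob and -0.36 in lean mice (difference 0.65 ± 0.15, adjusted p = 0.00943). Gata2, a transcription factor gene, changed by 0.39 in ob and -0.24 in lean mice (difference 0.63 ± 0.14). Crtam, known from activated lymphocytes, changed by 0.56 in ob and -0.042 in lean mice (difference 0.60 ± 0.14), and Rbm38, an RNA-binding protein gene, by 0.34 and -0.27 (difference 0.61 ± 0.093). Nr3c1, the glucocorticoid receptor gene, changed by -0.29 in ob and 0.56 in lean mice (difference -0.84 ± 0.24, adjusted p = 0.0254).

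Genes of microglia, the resident immune cells of the brain, fell in ob mice. Of 19 genes 12 fell and 1 rose, with a median of -0.20, against 4 that fell and 1 that rose in lean mice, with a median of -0.049. The difference between ob and lean passed for 3 of 19. In BTBR ob mice 11 fell and in B6 ob mice 2, which was 1 without any one of B6 10-week mice 1751, 1822, 1823 and 9 and 4-week mice 7, 11 and 14, and the strain difference passed for 0 of 19, with 5 at an unadjusted p under 0.05. C1qb encodes a chain of complement C1q. The C1qb ratios of 10-week BTBR ob mice were -0.43, -0.13, -0.33, -0.42 and -0.39, against 0.069, 0.17, 0.11, 0.006 and 0.13 at 4 weeks. Those of B6 ob mice were -0.11, -0.15, -0.058, -0.16 and -0.12 at 10 weeks, against -0.039, 0.029, 0.13, 0.041 and 0.11 at 4 weeks. The ages did not overlap in either strain. It changed by -0.30 ± 0.04 in ob mice (adjusted p = 8.84e-07) and by -0.049 ± 0.04 in lean mice, a difference of -0.25 ± 0.056 (adjusted p = 0.00892). C1qc differed by -0.20 ± 0.055 (adjusted p = 0.0254). P2ry12, the purine receptor of resting microglia, changed by -0.32 ± 0.061 and Fcrls by -0.39 ± 0.071. Itgam, the integrin CD11b and a defining marker of the list, went against the others at 0.80 ± 0.23. Like C1qb, C1qc, P2ry12 and Fcrls, it is read by a single probe. Of 17 astrocyte genes 2 fell and 1 rose, shares near those of all genes (7.76% fell and 7.06% rose). The 2 that fell were the filament gene Gfap (-0.42 ± 0.094) and the water channel gene Aqp4 (-0.39 ± 0.084). The median of the list was 0.00038 without the 2 arrays that stand apart, and nothing particular to astrocytes is read from these counts. Kdr, the endothelial receptor of vascular growth factor, changed by -0.34 ± 0.10. It was the 1 that fell among 20 endothelial and vessel genes without the 2 arrays that stand apart. In that fit 1 of the 20 rose and the median was -0.034, so no fall of the list is read from Kdr.

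**Figure D3:**
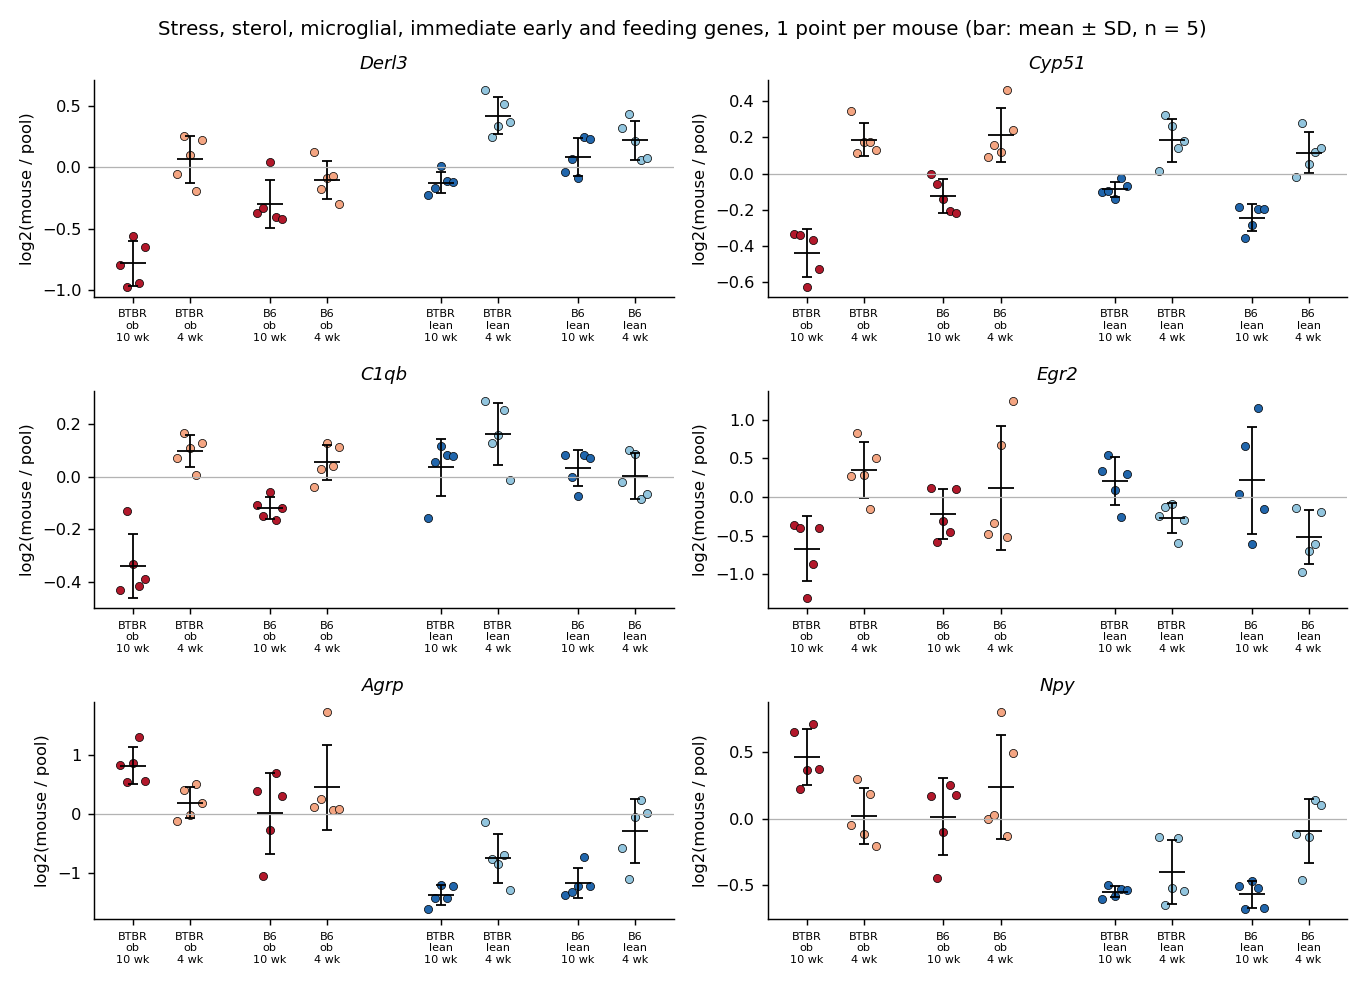
Log2 ratio to the pool of 6 genes in every mouse (y axis) by strain, genotype and age (x axis), coloured as in the plot of Cldn11, with bars for mean ± SD over 5 mice. Derl3 and Cyp51 drop furthest in BTBR ob mice, Egr2 moves in opposite directions in ob and lean mice, and Agrp is lowest in lean mice of 10 weeks.

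The feeding genes, whose regulation by leptin is lost in these mice, were read gene by gene. Of 23 listed feeding peptide genes 17 were measured, of which 2 fell and 0 rose, with a median of 0.002, and of 26 genes of receptors and energy sensing 1 fell and 0 rose (1 to 4 fell when any 1 ob mouse was left out, the most without B6 10-week mice 1751 or 1752). Of all genes 7.06% rose and 7.76% fell in this comparison, and nothing particular to these short lists is read from their counts. At 10 weeks BTBR ob mice had Agrp values of 0.83, 0.53, 0.86, 1.30 and 0.55, against -0.13, 0.40, -0.013, 0.50 and 0.17 at 4 weeks. For B6 ob mice they were 0.39, -1.05, -0.28, 0.68 and 0.29 at 10 weeks, against 0.12, 0.26, 1.72, 0.065 and 0.075 at 4 weeks. The BTBR ages did not overlap, and in B6 the ages overlapped with mouse 7 of 4 weeks far above the rest. Agrp changed by 0.63 ± 0.28 in BTBR (adjusted p = 0.141) and by -0.44 ± 0.28 in B6 (adjusted p = 0.404), which averaged 0.093 ± 0.20 (adjusted p = 0.813). In lean mice Agrp changed by -0.75 ± 0.20 (adjusted p = 0.00609), and the difference of 0.84 ± 0.28 missed the threshold (adjusted p = 0.0545). It passed with array weights (adjusted p = 0.0171) and in 6 of 40 fits without 1 mouse, those without B6 ob mice 1752 of 10 weeks and 7 of 4 weeks, BTBR ob 4-week mice 15 and 16, and the lean 4-week mice 47 of B6 and 37 of BTBR (adjusted p from 0.0173).

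BTBR ob mice of 10 weeks gave 0.65, 0.22, 0.36, 0.71 and 0.37 for Npy, and those of 4 weeks gave -0.049, 0.30, -0.11, 0.18 and -0.21. B6 ob mice of 10 weeks gave 0.17, -0.45, -0.098, 0.26 and 0.18, and those of 4 weeks gave -0.0043, 0.03, 0.80, -0.13 and 0.49. The groups overlapped in both strains. Npy changed by 0.44 ± 0.14 in BTBR (adjusted p = 0.0371), which was lost in 5 of 10 fits without 1 BTBR ob mouse, those without 10-week mice 10 and 18 and 4-week mice 11, 12 and 13, after quantile normalization (adjusted p = 0.0527) and in the fit to the 20 ob arrays alone (adjusted p = 0.114), and by -0.23 ± 0.14 in B6. It averaged 0.11 ± 0.10 in ob mice (adjusted p = 0.536) against -0.31 ± 0.10 in lean mice (adjusted p = 0.0283), a difference of 0.42 ± 0.14 (adjusted p = 0.065). The lean change was lost in 4 of 20 fits without 1 lean mouse, those without B6 4-week mice 35 and 45 and BTBR 4-week mice 41 and 45, and after quantile normalization (adjusted p = 0.103). The difference passed with array weights (adjusted p = 0.0303) and in 5 of 40 fits without 1 mouse, those without B6 ob mice 1752 of 10 weeks and 7 and 11 of 4 weeks, BTBR ob 4-week mouse 15 and B6 lean 4-week mouse 47.

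In BTBR ob mice Pomc stood at -1.53, -1.62, -0.087, -1.72 and -0.73 at 10 weeks, against -0.89, -0.95, -0.95, -1.14 and -0.72 at 4 weeks. The B6 ob mice had -0.10, -0.72, -0.54, 0.18 and 0.028 at 10 weeks, against -0.64, -0.70, -0.0073, -0.59 and -0.93 at 4 weeks. The values of Pomc, the precursor of the satiety peptide alpha-MSH, spread widely at 10 weeks and overlapped in both strains. It changed by 0.07 ± 0.25 (adjusted p = 0.894). Pomc is also made in the pituitary, and the mean of 9 pituitary markers ran from -1.05 to 0.54 in BTBR ob mice of 10 weeks against -0.65 to 0.0099 at 4 weeks, and from -0.90 to 0.76 in B6 ob mice of 10 weeks against -0.72 to 0.42 at 4 weeks, with 0 of 9 called and 0 at an unadjusted p under 0.05. Its part in the Pomc values was not tested.

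Nts, the gene of the anorexic peptide neurotensin, fell. Nts read -0.19, -0.39, -0.27, -0.21 and -0.26 in the 10-week BTBR ob mice, against 0.60, 0.14, 0.13, 0.38 and 0.49 in those of 4 weeks. In B6 ob mice the values were -0.21, -0.024, -0.30, -0.24 and 0.13 at 10 weeks and -0.18, -0.11, 0.22, -0.16 and -0.47 at 4 weeks. The ages were separate in BTBR and overlapped in B6. The change was -0.30 ± 0.091 (adjusted p = 0.0192), made of -0.61 in BTBR and 0.008 in B6, and it missed the threshold after quantile normalization (adjusted p = 0.117) and with array weights (adjusted p = 0.124). Bdnf, a neurotrophin gene that limits feeding, changed by -0.22 ± 0.056 (adjusted p = 0.00534). Mc4r was the 1 receptor gene that fell. The Mc4r ratios of 10-week BTBR ob mice were 0.05, -0.39, -0.20, -0.014 and -0.13, against 0.095, -0.03, -0.0056, 0.13 and 0.10 at 4 weeks. Those of B6 ob mice were -0.14, -0.027, -0.15, -0.13 and 0.095 at 10 weeks, against -0.12, 0.21, 0.18, 0.029 and 0.038 at 4 weeks. The ages overlapped in both strains. The change was -0.17 ± 0.05 (adjusted p = 0.018) against 0.05 ± 0.05 in lean mice, a difference of -0.22 ± 0.07 (adjusted p = 0.0486), and the ob change missed the threshold in the fit to the 20 ob arrays alone (adjusted p = 0.0572). The peptide genes that did not pass over both strains, by their change in ob mice, were Trh (-0.24), Crh (-0.17), Grp (-0.099), Ucn3 (-0.055), Nmu (-0.047), Gal (-0.0068), Cck (0.002), Nucb2 (0.018), Npw (0.028), Adcyap1 (0.045), Npvf (0.088) and Hcrt (0.11).

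Of 15 clock genes 2 rose and 0 fell, the repressors Cry1 (0.27 ± 0.051) and Cry2 (0.21 ± 0.042), where 7.06% of all genes rose and 7.76% fell. Without the 2 arrays that stand apart, 5 clock genes rose in BTBR ob mice, 0 in B6 ob mice and 2 in lean mice. Nothing particular to the clock of ob mice is read from these counts, and the hour at which tissue was taken is not given. Dio3, which inactivates thyroid hormone, changed by -0.35 ± 0.061. Of 26 genes of synaptic receptors and channels 2 fell and 0 rose, a share of falls near that of all genes.

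**Figure D4:**
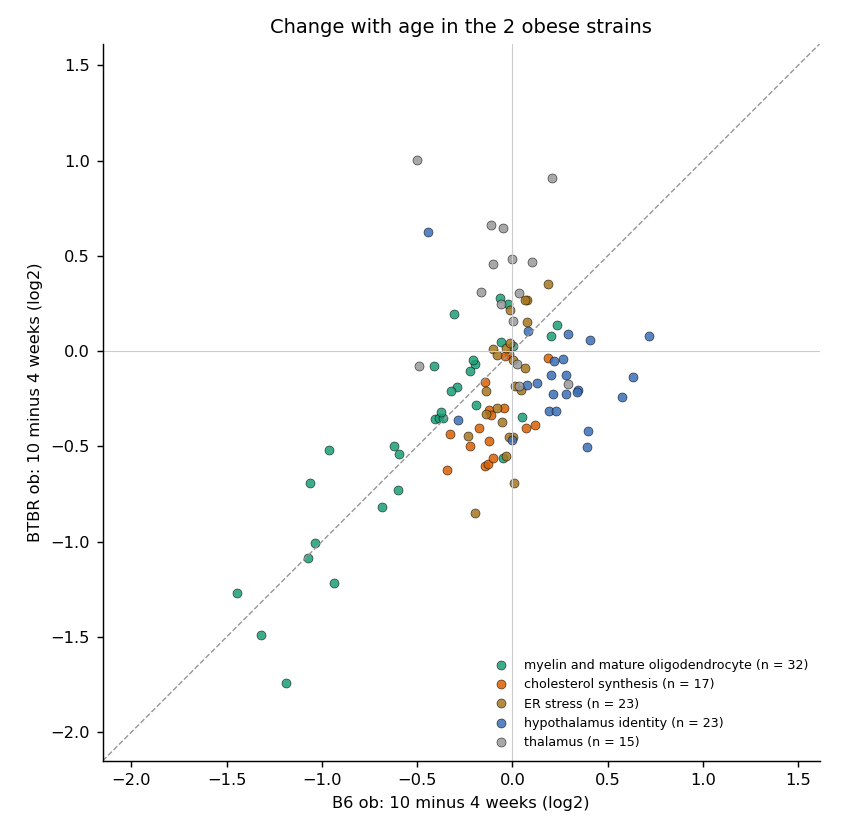
Change from 4 to 10 weeks (10 minus 4 weeks, log2) of the members of 5 lists, in BTBR ob mice on the y axis and in B6 ob mice on the x axis, 1 point per gene, with the dashed line where both are equal. Most myelin genes follow the line, most cholesterol genes lie below it, most hypothalamic markers lie to the right of it (Agrp lies far above it) and most thalamic markers lie above it.

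The strains were then compared by testing the difference of their changes, for which 1.49% of genes changed more upward and 1.76% more downward in BTBR than in B6 ob mice. This count of 647 genes moved with the processing: it was 112 in the fit to the 20 ob arrays alone, 376 after quantile normalization, 336 without B6 10-week mouse 1751, 408 without BTBR 4-week mouse 16 and 1002 without B6 4-week mouse 7.

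Genes of cholesterol synthesis, which myelin needs in large amounts, fell in BTBR and in smaller number in B6. Of 17 genes 13 fell in BTBR ob mice (median -0.40) and 3 in B6 ob mice (median -0.12), and the difference passed for 7, all lower in BTBR, or for 5 to 8 when any 1 ob mouse was left out. Over both strains 11 of 17 fell, and in lean mice 13. Cyp51 encodes the demethylase of lanosterol, a middle step of the pathway. At 10 weeks BTBR ob mice had Cyp51 values of -0.34, -0.34, -0.63, -0.37 and -0.52, against 0.34, 0.11, 0.17, 0.18 and 0.13 at 4 weeks. For B6 ob mice they were -0.0037, -0.059, -0.14, -0.21 and -0.22 at 10 weeks, against 0.091, 0.16, 0.12, 0.46 and 0.24 at 4 weeks. The ages did not overlap in either strain. It changed by -0.63 ± 0.067 in BTBR (adjusted p = 3.31e-08) and -0.34 ± 0.067 in B6 (adjusted p = 0.0011), and their difference of -0.28 ± 0.094 did not pass (adjusted p = 0.0861), except without B6 4-week mouse 10 (adjusted p = 0.0297). The difference passed for Fdft1, squalene synthase (-0.50 ± 0.10, adjusted p = 0.00431), Idi1, isopentenyl diphosphate isomerase (-0.46 ± 0.11) and Msmo1, a sterol oxidase (-0.47 ± 0.12), each lost in the fit to the 20 ob arrays alone (adjusted p = 0.0696, 0.0955 and 0.0753). Idi1 and Msmo1 were also lost after quantile normalization (adjusted p = 0.0639 and 0.0628), and Msmo1 without BTBR 10-week mouse 4.

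Genes of the endoplasmic reticulum stress response, which fold and clear secreted proteins, fell in BTBR and did not pass in B6. Of 23 genes 10 fell and 3 rose in BTBR ob mice, against 0 in either direction in B6 ob mice, where 1 of the 23 had an unadjusted p under 0.05. The difference passed for 5, all lower in BTBR, or for 3 to 6 when any 1 ob mouse was left out, the fewest without B6 10-week mouse 1751, B6 4-week mouse 11 or BTBR 10-week mouse 4. The 3 that rose in BTBR were Atf4 (0.27), Ddit3 (0.27) and Trib3 (0.35). Derl3 encodes a factor that draws misfolded proteins out of the organelle. BTBR ob mice of 10 weeks gave -0.79, -0.97, -0.56, -0.94 and -0.65 for Derl3, and those of 4 weeks gave -0.06, 0.26, 0.10, -0.19 and 0.22. B6 ob mice of 10 weeks gave -0.37, -0.34, 0.045, -0.41 and -0.42, and those of 4 weeks gave 0.13, -0.18, -0.091, -0.073 and -0.30. The BTBR ages were apart by more than 0.3 and the B6 ages overlapped, with mouse 9 the highest of the B6 10-week mice. Derl3 changed by -0.85 ± 0.099 in BTBR (adjusted p = 2.05e-07) and -0.19 ± 0.099 in B6 (adjusted p = 0.273), a difference of -0.65 ± 0.14 (adjusted p = 0.0077, and 0.0533 from the 20 ob arrays alone). BTBR lean mice also separated the ages, with Derl3 at -0.23 to 0.009 at 10 weeks against 0.24 to 0.63 at 4 weeks. B6 lean mice overlapped, at -0.092 to 0.24 against 0.061 to 0.43. Without the 2 arrays that stand apart, 7 of the 23 genes fell and 0 rose in lean mice over both strains. Over all 19896 genes that fit, chosen after seeing the data, called 1938 rises and 2674 falls in lean mice. The difference between ob and lean mice then passed upward for 1 and downward for 2.

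Hspa5 encodes BiP, the main chaperone of the organelle. In BTBR ob mice Hspa5 stood at -0.42, -0.35, -0.47, -0.40 and -0.46 at 10 weeks, against -0.12, 0.075, 0.042, 0.092 and 0.068 at 4 weeks. The B6 ob mice had -0.18, -0.29, -0.021, -0.14 and -0.15 at 10 weeks, against 0.14, -0.16, -0.21, -0.22 and -0.34 at 4 weeks. The BTBR ages did not overlap and the B6 ages did. The change was -0.45 ± 0.079 in BTBR and 0.0015 ± 0.079 in B6, a difference of -0.45 ± 0.11 (adjusted p = 0.0198, and 0.0631 after quantile normalization). Creld2 differed by -0.52 ± 0.13 (adjusted p = 0.0241) and Sdf2l1, a partner of BiP, by -0.70 ± 0.14 (adjusted p = 0.00488). The Creld2 difference was lost in the fit to the 20 ob arrays alone and in 3 of 20 fits without 1 ob mouse, those without BTBR 10-week mouse 4, B6 10-week mouse 1751 and B6 4-week mouse 11. BTBR lean mice had Hspa5 at -0.18 to 0.13 at 10 weeks against 0.17 to 0.38 at 4 weeks, again without overlap. B6 lean mice overlapped, at -0.10 to 0.24 against -0.053 to 0.48.

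The promoters of 4 genes that fell in BTBR are shown because they hold the endoplasmic reticulum stress element, the letters CCAAT, 9 bases of any kind and CCACG, searched on both strands in RefSeq promoters of build GRCm38.p6 (250 bases before to 50 after the start). In capitals are the 5 and 5 fixed bases, which read CGTGG and ATTGG where the element lies on the other strand. Of 21 endoplasmic reticulum stress genes with a promoter entry 7 hold it (Calr, Creld2, Derl3, Dnajc3, Ero1b, Hspa5 and Pdia6), against 0.119% of all 32851 promoters; 4 of the 7 fell in BTBR. The sequences run 5′ to 3′ along the gene, for Derl3 at chr10:75893192-75893310, plus strand, for Creld2 at chr15:88819470-88819588, plus strand, for Hspa5 at chr2:34771975-34772089, plus strand and for Calr at chr8:84847025-84847143, minus strand. A match is a description of these letters and not of a bound factor.
Derl3: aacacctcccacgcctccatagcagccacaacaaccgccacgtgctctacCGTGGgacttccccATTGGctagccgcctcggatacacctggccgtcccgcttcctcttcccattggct
Creld2: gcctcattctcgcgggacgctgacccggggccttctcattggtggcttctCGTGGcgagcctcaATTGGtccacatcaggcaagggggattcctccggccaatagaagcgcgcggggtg
Hspa5: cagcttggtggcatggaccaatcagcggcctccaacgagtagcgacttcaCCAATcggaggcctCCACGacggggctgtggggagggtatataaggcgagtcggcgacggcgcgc
Calr: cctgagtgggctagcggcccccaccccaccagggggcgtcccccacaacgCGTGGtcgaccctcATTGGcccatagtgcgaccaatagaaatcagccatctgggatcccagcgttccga

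The CCAAT box on its own, which is part of that element and also binds the factor NF-Y, stood in 14 of 14 cholesterol synthesis genes with a promoter entry, against 37.4% of all promoters, while TCAC, any base and CCAC, a form of the sterol element, stood in 1 of 14 (Hmgcs1) against 1.24%. A gene counted when any of its promoters held the letters, and the 14 genes have 17 promoters. The shares of all promoters instead count each of the 32851 promoters, which belong to 27025 gene symbols. The last 150 bases before the start of Cyp51 (chr5:4104698-4104847, minus strand) and Idi1 (chr13:8885456-8885605, plus strand) are shown with the box in capitals, as ATTGG where it lies on the other strand.
Cyp51: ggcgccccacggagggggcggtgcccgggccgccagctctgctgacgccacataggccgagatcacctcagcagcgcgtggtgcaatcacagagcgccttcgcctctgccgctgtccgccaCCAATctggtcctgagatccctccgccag
Idi1: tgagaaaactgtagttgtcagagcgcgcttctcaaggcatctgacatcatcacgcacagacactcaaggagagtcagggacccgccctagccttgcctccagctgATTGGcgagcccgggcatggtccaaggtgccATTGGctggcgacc

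**Figure D5:**
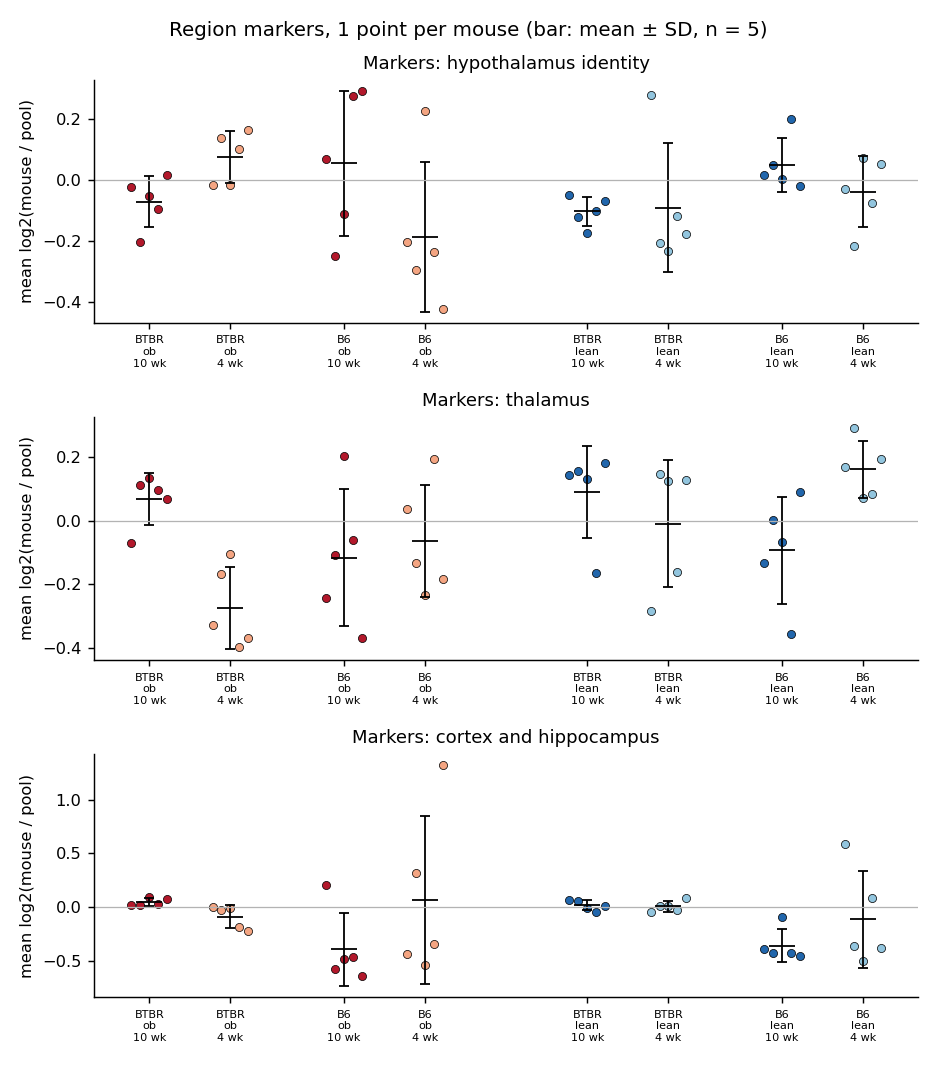
Mean log2 ratio to the pool of 23 hypothalamic, 15 thalamic and 15 cortical and hippocampal marker genes in every mouse (y axis) by strain, genotype and age (x axis), with bars for mean ± SD over 5 mice. Hypothalamic markers lie lower and thalamic markers higher at 10 than at 4 weeks in BTBR ob mice, and in B6 ob mice the cortical markers of the 4-week mouse 11 stand far above the rest.

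Region markers were compared between the strains. Of 23 genes of hypothalamic identity 0 rose and 4 fell in BTBR ob mice (median -0.18), against 4 that rose and 0 that fell in B6 ob mice (median 0.27), and the difference passed for 6, all lower in BTBR, or for 4 without the 2 arrays that stand apart. With any 1 ob mouse left out the difference passed for 3 to 12, the fewest without B6 10-week mice 1751 or 1822 or BTBR 4-week mouse 11 and the most without B6 4-week mouse 7. The rises in B6 were then 2 to 10, the fewest without 4-week mouse 11 and the most without 4-week mouse 7, 10-week mice 1752 and 9 giving 8 and 7, and the falls in BTBR were 2 to 4, the fewest without 10-week mice 9 or 18 or 4-week mice 11 or 15. Of 15 thalamic genes 9 rose in BTBR and 1 fell in B6, and the difference passed for 3, all higher in BTBR, or for 2 without those arrays. With any 1 ob mouse left out it passed for 1 to 7, the fewest without B6 10-week mouse 1751, B6 4-week mouse 10 or BTBR 4-week mouse 11, with 5 without B6 4-week mouse 7 and the most without B6 10-week mouse 9. Averaged over the hypothalamic list, the markers stood at -0.071 ± 0.084 against 0.075 ± 0.085 in BTBR ob mice and at 0.055 ± 0.24 against -0.19 ± 0.25 in B6 ob mice (mean ± SD, 10 against 4 weeks, n = 5 each). The thalamic list stood at 0.069 ± 0.082 against -0.27 ± 0.13 in BTBR ob mice and at -0.12 ± 0.22 against -0.063 ± 0.18 in B6 ob mice. The cortical list ranged from 0.018 to 0.094 against -0.23 to 0.0014 in BTBR ob mice, and from -0.65 to 0.20 against -0.54 to 1.32 in B6 ob mice. How evenly the tissue was cut cannot be read from the labels, and the part of these shifts in the strain differences was not tested.

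Sim1, a transcription factor gene of the paraventricular nucleus, shows the opposed changes. Sim1 read -0.17, -0.18, -0.25, -0.23 and -0.25 in the 10-week BTBR ob mice, against 0.072, 0.18, -0.018, 0.50 and 0.29 in those of 4 weeks. In B6 ob mice the values were 0.014, 0.12, -0.075, -0.019 and 0.63 at 10 weeks and -0.17, -0.20, 0.13, -0.45 and -0.62 at 4 weeks. The BTBR ages did not overlap and the B6 ages did, with mouse 1751 highest at 10 weeks. It changed by -0.42 ± 0.11 in BTBR and 0.40 ± 0.11 in B6, a difference of -0.82 ± 0.16 (adjusted p = 0.00431, and 0.0533 from the 20 ob arrays alone). Nkx2-1, needed to form the hypothalamus, differed by -0.82 ± 0.20 (adjusted p = 0.0185) and Fezf1, of the ventromedial nucleus, by -0.77 ± 0.19 (adjusted p = 0.0172), both lost after quantile normalization (adjusted p = 0.0872 and 0.0555) and in the fit to the 20 ob arrays alone (adjusted p = 0.102 and 0.0909), and Nkx2-1 also with array weights (adjusted p = 0.054). Prkcd, a protein kinase C gene high in the thalamus, had the largest strain difference among the called genes. The Prkcd ratios of 10-week BTBR ob mice were -0.011, 0.76, 0.66, 0.59 and 0.32, against -0.75, -0.20, -0.25, -0.66 and -0.85 at 4 weeks. Those of B6 ob mice were -0.63, -0.34, 0.40, -0.22 and -0.80 at 10 weeks, against 0.20, 0.097, -0.002, 0.65 and -0.016 at 4 weeks. The ages overlapped in B6 and not in BTBR. The change was 1.004 ± 0.23 in BTBR and -0.50 ± 0.23 in B6, a difference of 1.51 ± 0.33 (adjusted p = 0.00822, and 0.092 after quantile normalization). Gabrd, a subunit of extrasynaptic GABA receptors, differed by 1.43 ± 0.29 (adjusted p = 0.00488), Tafa4, a secreted peptide gene, by 1.20 ± 0.28 and Slc17a7, the vesicular glutamate transporter of cortex and thalamus, by 1.23 ± 0.34 (lost in 8 of 20 fits without 1 ob mouse, those without B6 10-week mice 1751 and 1752, B6 4-week mice 10 and 11, BTBR 10-week mice 4 and 9 and BTBR 4-week mice 11 and 16, and after quantile normalization, adjusted p = 0.0731). In the other direction Cacna2d1, a calcium channel subunit, differed by -1.05 ± 0.26 (lost without B6 10-week mouse 1751, after quantile normalization, adjusted p = 0.0555, and with array weights, adjusted p = 0.054), Emp2, a membrane protein gene, by -0.9966 ± 0.20, and Igsf1, which bears on pituitary control of the thyroid, by -0.96 ± 0.16. The peptide gene Adcyap1 differed by -0.66 ± 0.13 (adjusted p = 0.00431) and Klf9, a target of thyroid hormone, by 0.70 ± 0.16 (adjusted p = 0.0135). Klf9 is read by 2 probes whose changes in ob mice have opposite signs (-0.23 and 0.082), and its difference was lost with the more variable of them (adjusted p = 0.0555). In the fit to the 20 ob arrays alone the differences of Slc17a7 (adjusted p = 0.149), Cacna2d1 (adjusted p = 0.0639), Tafa4 (adjusted p = 0.0779) and Klf9 (adjusted p = 0.0578) did not pass.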

How the data were processed

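Total RNA was taken with Trizol and an RNeasy column, amplified in 1 round to cRNA and labelled with Cy3 and Cy5, per the labels' protocols. The values deposited by the authors are ratios on a log10 scale, 1 mouse against its own strain's hypothalamus pool, a scale read from the values, which end at limits of -2 and 2. No label names the scanner, the normalization, any background step or the direction of the ratio. Each value was rescaled here from the deposited log10 to log2. Of 39556 probes 23283 had 1 gene symbol in the platform annotation, which can be old, and none had several; 16273 without one were not analysed here. Probes of a gene were averaged, giving 19896 genes with no filter on level.

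The 40 hypothalamus arrays were fitted with limma 3.58.1 in R 4.3.3, with a mean for each of 8 groups. Contrasts gave each change with age, and 2-sided p-values were adjusted by Benjamini-Hochberg over all genes, with a threshold of 0.05. In simulated data for the ob change over 19896 genes, all changes of 1.5-fold (100%) and 99% of changes of 2-fold were found. False calls made up 9.13%, more than the threshold of 0.05 aims at. The genes called in ob mice had a median size of 0.18 on the log2 scale, which is below 1.5-fold. How often changes that small are found was not tested. No array batch is named, so none entered a fit. Each gene had 1 estimate of the spread between mice, shared by all 8 groups of ob and lean mice. An SE or p-value given for 1 strain therefore does not measure the spread of that strain alone. For Agrp the SD was 0.31 and 0.27 in BTBR ob mice of 10 and 4 weeks, against 0.68 and 0.72 in B6 ob mice. The members and lists were chosen with earlier results of these data known. Named genes were the 10 largest rises and 10 largest falls in ob mice that passed, kept their sign and did not overlap between ages in either strain, the 4 largest in each direction for the strain difference and for ob minus lean, up to 4 genes of each list and all feeding peptides, of which a part is printed. List members whose call rested on single mice were counted and mostly not named. Alternatives were centring, quantile normalization, the most variable probe, array weights, the 20 ob arrays alone, leaving out genes at the limits, leaving out each mouse, a threshold of 0.01 and, chosen after seeing the data, leaving out B6 ob 4-week mouse 14 and B6 lean 4-week mouse 34. Promoters are RefSeq sequences of build GRCm38.p6.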

Additional observations from a re-analysis of the deposited data

Results flagged for a closer look

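Single mice stood apart from the other 4 of their group for 12 of the genes given mouse by mouse, where the gap to the nearest mouse over the range of the group passed Dixon's 95% critical value, which chance passes in about 1 in 20 groups. B6 ob 4-week mouse 7 did so for Ugt8a (-0.57), Enpp6 (-0.12), Adamts4 (0.21) and Agrp (1.72). BTBR ob 10-week mouse 9 stood apart for Enpp6 (-0.32), and BTBR ob 4-week mouse 13 for Cyp51 (0.34) and Hspa5 (-0.12). B6 ob 10-week mouse 9 stood apart for Derl3 (0.045) and B6 ob 10-week mouse 1751 for Sim1 (0.63). Among lean mice, B6 10-week mouse 22 stood apart for Agrp (-0.73) and Prkcd (-0.94), B6 10-week mouse 24 for Hspa5 (-0.10), BTBR 10-week mouse 26 for C1qb (-0.16), BTBR 4-week mouse 45 for Abca8a (-1.04) and BTBR 4-week mouse 41 for Pomc (2.49).

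The change with age differed between ob and lean mice for 1559 genes. Among the named genes it was lower in ob for Mobp (-0.52), Hapln1 (-0.50), C1qb (-0.25), C1qc (-0.20), Egr2 (-1.28), Egr4 (-1.06), Fos (-0.63), H2-D1 (-0.33), B2m (-0.27), H2-K1 (-0.34), H2-Aa (-0.67), Nr3c1 (-0.84), Ywhag (-1.23) and Cxcl10 (-1.10). It was higher in ob for Ank2 (0.65), Gata2 (0.63), Rbm38 (0.61) and Crtam (0.60). The change differed between the strains of ob mice for 647 genes. It was lower in BTBR for Col3a1 (-1.21), Hspa5 (-0.45), Derl3 (-0.65), Creld2 (-0.52), Sim1 (-0.82), Nkx2-1 (-0.82), Emp2 (-0.9966), Igsf1 (-0.96), Idi1 (-0.46), Msmo1 (-0.47), Fdft1 (-0.50), Sdf2l1 (-0.70), Fezf1 (-0.77), Adcyap1 (-0.66) and Cacna2d1 (-1.05). It was higher in BTBR for Prkcd (1.51), Gabrd (1.43), Tafa4 (1.20), Klf9 (0.70) and Slc17a7 (1.23).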

How the results depend on the processing

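No paired analysis was possible because the 4-week and 10-week groups hold different mice and share no mouse numbers that pair them. Of 120 called results of single genes, 95 kept their call and direction under centring, quantile normalization, the most variable probe, array weights, the 20 ob arrays alone, leaving out genes at the limits and leaving out each mouse, and none of the 127 reversed. Most of these genes were picked because they had passed, many for a large change or for ages without overlap. That choice favoured stable calls, so 95 of 120 is not a rate for all called genes. With a threshold of 0.01 the counts were 1582 for the ob change, 1311 for BTBR ob, 542 for B6 ob, 146 for the strain difference, 2050 for the lean change and 191 for ob minus lean. The 20 ob arrays alone gave 2010 genes for the ob change (895 rises and 1115 falls), against 2948 in the main fit. They gave 1652 genes in BTBR ob, 613 in B6 ob and 112 for the strain difference. Quantile normalization gave 376 for the strain difference. Without 1 mouse the counts ran from 2521 to 3221 for the ob change, 1965 to 2501 for BTBR ob, 790 to 1470 for B6 ob, 336 to 1002 for the strain difference, 2978 to 4634 for the lean change and 1022 to 2446 for ob minus lean. Centring each array on its median gave 1469 rises and 1518 falls in ob mice, and 1782 rises and 1997 falls in lean mice. Without the 2 arrays that stand apart, 18 of 32 myelin genes, 16 of 25 matrix genes, 12 of 19 microglial genes and 11 of 17 cholesterol genes fell in ob mice, and the strain difference passed for 6 cholesterol genes and 4 endoplasmic reticulum genes, and 4612 genes were called in lean mice and 1974 for ob minus lean. The cause of these shifts was not tested. The ratios give no level or signal over background, so weak probes could not be told from strong ones.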
